A study of Mus musculus with 112 samples.

Results

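CpG methylation (DNAme) of the genes for glutamate and GABA receptors was followed in sperm of the exposed generation (F0). Sperm and prefrontal cortex of sons in the next generation (F1) were followed as well. The set held 34 of the 55413 annotated genes, taken from 2000 bp upstream of each gene's start to its end, and comprised 3 AMPA, 5 kainate and 7 NMDA receptor subunits, 1 delta receptor, 7 metabotropic glutamate receptors, 9 GABA-A subunits and both GABA-B subunits. The promoter was taken as the window within 1000 bp of the start and the gene body as the remainder down to the gene's end. Of the cytosines with a value in at least 4 libraries of every group compared, the receptor genes held 3031 of 1023708 in F0 sperm, 1730 of 517958 in F1 sperm and 4225 of 1390836 in F1 brain.

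Reduced representation bisulfite sequencing (RRBS), which reads methylation in fragments cut at restriction sites and so samples CpG-dense DNA more than the rest, was carried out on 112 libraries in 13 groups. F0 males were C57BL/6J wild type (WT), either unexposed (n = 10) or exposed to cigarette smoke (CS; n = 9), or Nrf2-/- males lacking the transcription factor that drives antioxidant defence genes, unexposed (n = 10) or exposed (n = 9). Further exposed WT males were kept without smoke for a shortest (recovery 1, n = 9), intermediate (recovery 2, n = 10) or longest period (recovery 3, n = 10). The unexposed WT males were collected when exposure ended, so that recovery and greater age cannot be told apart. So were the exposed WT males without recovery. Per the methods, sires were put with females only later, so neither of these groups fathered the sons. F1 sperm came from sons of exposed (n = 7) and unexposed (n = 6) WT sires, and F1 brain from 8 sons each of exposed and unexposed WT and Nrf2-/- sires. Sons that shared a sire or litter could not be identified, and the fits held no term for either, so n counts sons and not sires. All mothers were unexposed CAST/EiJ females, so every son is a hybrid, and those with an Nrf2-/- father inherited the targeted allele from him alone. In brain the genotype of the sire and the son's own genotype therefore cannot be told apart. Sperm had been treated to lyse somatic cells, and the brain samples hold neurons and glia together, so that a change within a cell type and a change in the share of cell types cannot be told apart. The samples were labelled only as sperm or brain.

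The libraries gave values at 510212 to 1855546 positions each. The files give no read counts, so the depth behind each percentage is unknown. The tissue labels were checked against promoters of known behaviour. The maternally methylated imprinted list is unmethylated in sperm and is expected to be methylated on 1 allele in brain. Its median promoter lay between -0.048% and 1.48% in the F0 sperm libraries (8 of 12 listed genes with values). In the F1 brain libraries it lay between 3.57% and 35.4% (10 genes with values). Means of single genes in brain ran from 1.01% (Inpp5f) to 39.2% (Zrsr1), so not every listed window was methylated there. Germline promoters, silenced in somatic cells, had a median of 79.1% in brain, against 1.15% in F0 and 3.60% in F1 sperm. The median neuronal promoter was at 1.74%, 0.943% and 0.63% in that order, while the means of single genes reached 7.17% in brain (Camk2a, 4 genes with values), 95.9% in F0 sperm (Rbfox3, 3 genes) and 1.30% in F1 sperm (Snap25, 2 genes). The median glial promoter was at 31.4% in brain, 0.565% in F0 and 0.69% in F1 sperm. In brain the glial list held Mbp (2.67%) and Mog (60.4%), while in sperm only Mbp had values. Blood and microglia promoters had medians of 78.2% in brain, 94.4% in F0 and 93.4% in F1 sperm (2 genes each). Library means ranged from 30.6% to 37.6% in brain, and the 4 brain libraries under 33% all came from sons of exposed sires, 1 from a WT and 3 from Nrf2-/- sires. The column headings carry a facility number that differs between F0 sperm, F1 sperm and F1 brain, and a serial number whose ranges for WT and Nrf2-/- do not overlap within F0 sperm or within brain. No source used here says what these numbers stand for, so that tissue and genotype cannot be told apart from them. In addition, 1 brain library titled as the son of an unexposed WT sire carries the Nrf2-/- strain label. It was analysed with its titled group, and its column could not be identified from the headings.

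Ionotropic glutamate receptors are ligand-gated cation channels that carry fast excitation in cortex. AMPA receptors open first, NMDA receptors admit calcium once the membrane is depolarised, and kainate receptors act on both sides of the synapse. Metabotropic glutamate receptors and GABA-B receptors signal through G proteins, whereas GABA-A receptors are chloride channels that carry fast inhibition. CpG-rich promoters are commonly free of methylation in both germ cells and neurons, while gene bodies are commonly methylated and change more between cell types.

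The regions in which sperm and brain differed most are shown with their sequence, 3 that were higher and 1 that was lower in brain. All are on the plus strand of GRCm38 (mm10), capitals mark the scored CpGs, and the genes they lie in are transcribed from the minus strand. The first, at chr9:106650933-106651006, lies in coding exon 3 of Grm2. The second, at chr6:135733318-135733378, lies in coding exon 14 of Grin2b, where the annotation also places a non-coding RNA on the plus strand. The third, at chr7:45862218-45862354, lies in coding exon 2 of Grin2d, and the fourth, at chr4:46668238-46668330, in an intron of Gabbr2.
Grm2: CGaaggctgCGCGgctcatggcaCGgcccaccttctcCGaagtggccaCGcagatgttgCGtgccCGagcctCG
Grin2b: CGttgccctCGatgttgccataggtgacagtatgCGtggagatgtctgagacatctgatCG
Grin2d: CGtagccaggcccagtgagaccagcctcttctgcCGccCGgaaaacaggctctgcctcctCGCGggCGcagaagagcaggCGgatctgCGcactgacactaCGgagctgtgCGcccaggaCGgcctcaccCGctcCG
Gabbr2: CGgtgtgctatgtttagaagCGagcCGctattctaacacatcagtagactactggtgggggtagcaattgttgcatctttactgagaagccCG

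Promoters of the receptor genes were almost free of methylation in every tissue, whereas their bodies were methylated. In unexposed WT F0 sperm the median promoter of the 28 genes with values was at 0.794%, and 25 of the 28 lay below 5%. Over all 13269 protein-coding promoters with values the median was 0.82%, and 92.3% lay below 5%. In brain of sons of unexposed WT sires the receptor promoters had a median of 0.895%, with 26 of 28 below 5%, against 80.3% of protein-coding promoters. The CpG observed-to-expected ratio of the 34 promoters had a median of 0.527, and 35.3% exceeded 0.6, close to the 33.9% of all protein-coding promoters. Receptor gene bodies had a median of 59.1% in unexposed WT F0 sperm against 75.0% over protein-coding genes. Window levels depend on which cytosines were scored, so tissues were set side by side only at cytosines scoreable in all of them, 246 in 20 promoters and 951 in 30 bodies.

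**Figure D1:**
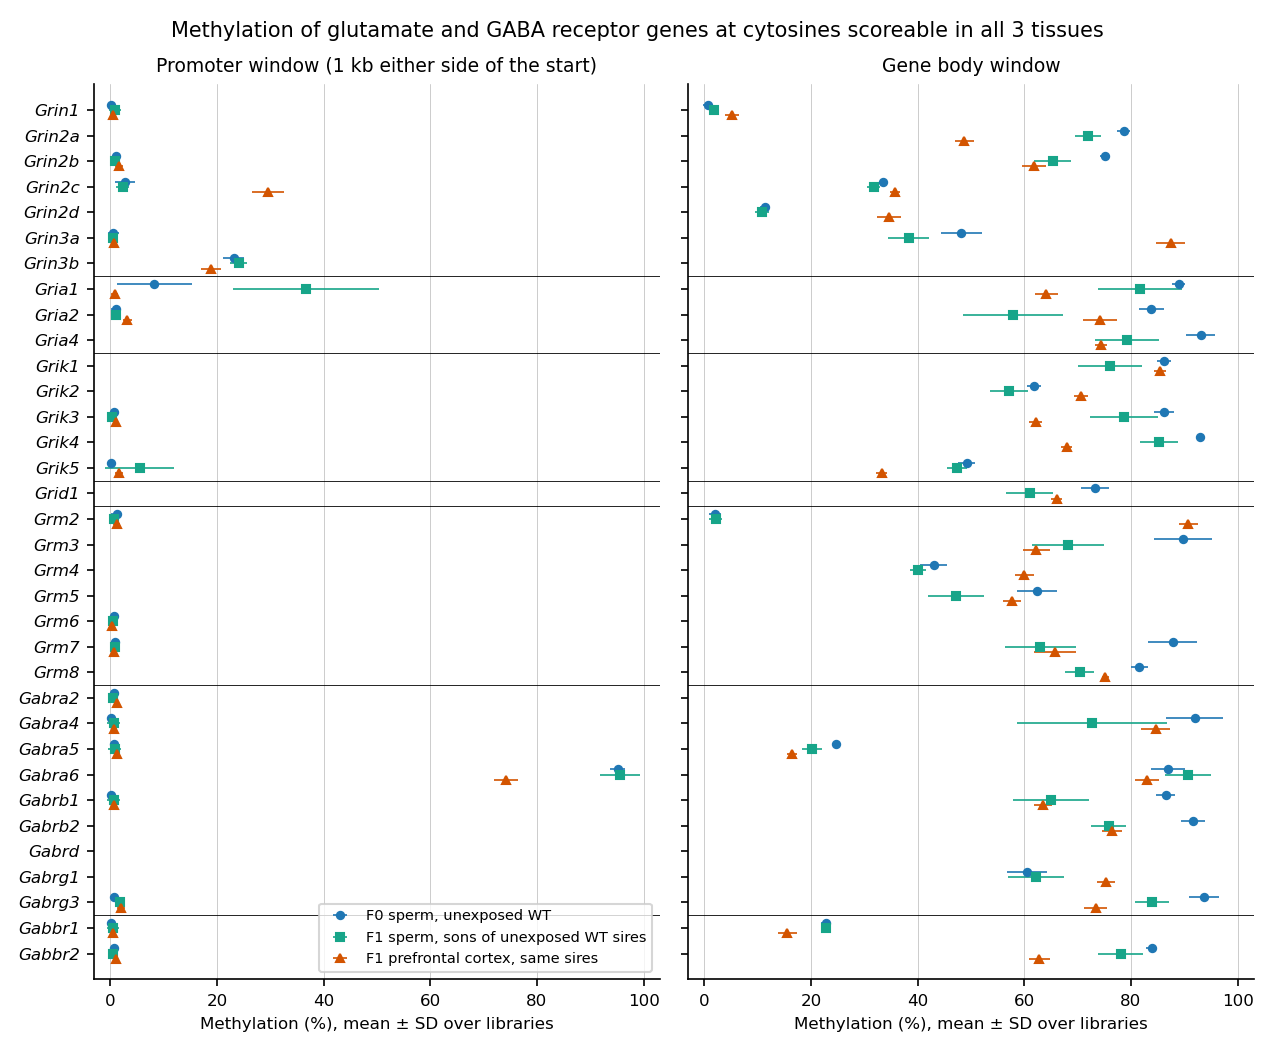
Methylation in percent (x axis, mean ± SD over libraries) of each receptor gene's promoter and body window (y axis) at the shared cytosines, in unexposed WT F0 sperm and in sperm and brain of sons of unexposed WT sires. Median promoters lie at 0.687%, 0.83% and 1.16% and median bodies at 80.1%, 64.0% and 64.9%, and the Gabra6 promoter stands apart near 95% in sperm and 74.2% in brain.

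At these shared cytosines the exceptions among promoters were few. Gabra6, a GABA-A subunit best known from cerebellar granule cells, had a methylated promoter in F0 sperm (95.1% ± 1.44, SD, n = 10), in F1 sperm (95.6% ± 3.82, n = 6) and, at a lower level, in brain (74.2% ± 2.22, n = 8). Grin3b, an NMDA subunit that binds glycine, held an intermediate level throughout, at 23.2%, 24.1% and 18.9% in the same order on 13 cytosines. Over all cytosines of its window scored in each tissue, Grin3b was at 8.97% in F0 sperm (43 cytosines) and 6.93% in brain (57 cytosines). Gria1, the AMPA subunit GluA1, stood at 8.26% ± 6.99 in F0 sperm (n = 9), 36.7% ± 13.7 in F1 sperm (n = 5) and 0.856% ± 0.644 in brain (n = 8), on 3 cytosines. Of the 20 promoters, Gria1 was the one at which the means of both sperm generations stood furthest apart.

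Among the bodies, Grin1, the obligatory NMDA subunit, was near 0 in F0 sperm (0.704% ± 1.01, n = 10) and at 5.25% ± 1.33 in brain (n = 8). These Grin1 values rest on at most 5 shared cytosines, against 24 scored in F0 sperm and 34 in brain. Over all cytosines scored in each tissue, no receptor body of these groups lay below 1.79% in F0 sperm or 11.8% in brain. Both GABA-B genes were far apart, with Gabbr1 at 22.8% and Gabbr2 at 83.9% in F0 sperm. F1 sperm had a lower body level than F0 sperm in 25 of 30 genes, with a median difference of -7.60 percentage points, and a higher one in 5. Over the 10052 protein-coding bodies with shared cytosines, 78.6% were lower in F1 sperm, with a median difference of -4.73 points. Examples are Grm7, a presynaptic receptor, at 87.8% ± 4.59 in F0 and 63.0% ± 6.63 in F1 sperm, and Gabrb1 at 86.5% ± 1.84 and 65.1% ± 7.14. F0 males and F1 sons differ in strain and in facility number as well as in generation, and no test was made between them. Promoters were lower in F1 sperm in 9 and higher in 11 of 20 genes.

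Brain and sperm of sons of unexposed WT sires were then compared by region, that is by runs of at least 3 scored cytosines no more than 100 bp apart. Of 99 receptor regions, 65 passed an adjusted p of 0.05 by limma, or 65.7%, against 56.3% of all regions tested. Methylation was lower in brain in 42 of the receptor regions (42.4%, against 26.0% of all regions) and higher in 23 (23.2%, against 30.3%). The median difference was -2.17 percentage points in receptor regions and 0.187 over all regions. Outside promoters 62 of 81 receptor regions passed, against 67.9% of all such regions, with 42 lower (51.9%, against 34.4%) and 20 higher (24.7%, against 33.5%), and the median difference was -7.22 points against 0.036 over all regions. Differences above 25 points were found in 32 of the 99 (32.3%, against 22.0%), and above 50 points in 10 (10.1%, against 10.3%).

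**Figure D2:**
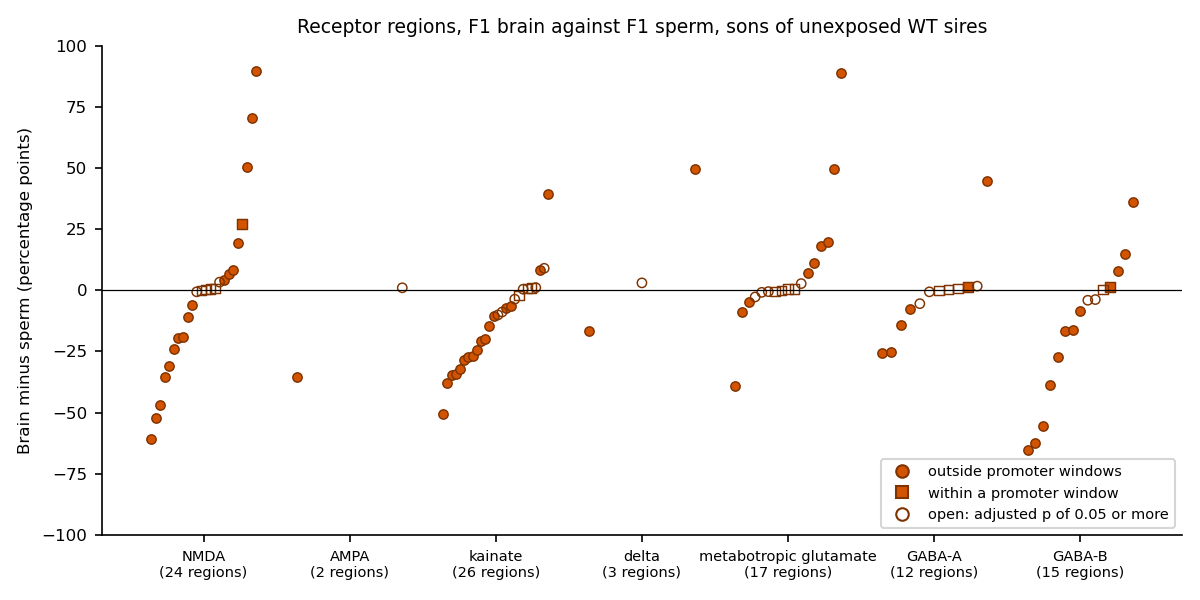
Difference in methylation between F1 brain and F1 sperm in percentage points (y axis) for each of the 99 receptor regions, by receptor class (x axis), in sons of unexposed WT sires. Filled points passed the adjusted p, and the extremes lie at 89.7 points in Grin2b and -65.3 points in Gabbr2.

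Sons of exposed WT sires gave a like count in a separate set of animals. Both comparisons came from the same fit with a shared estimate of spread, so they are not independent. There 72 of 99 receptor regions passed, against 56.0% of all regions, with 48 lower (48.5%, against 27.5%) and 24 higher in brain (24.2%, against 28.5%). Of the regions that passed in either son group, 63 passed in both, which is 96.9% of those from sons of unexposed and 87.5% of those from sons of exposed sires. All 63 had the same direction. Over all regions the shares were 86.7% and 87.1%.

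By class, the regions outside promoters were divided as follows, where 34.4% of all such regions were lower and 33.5% higher in brain. Kainate receptor genes had 15 of 23 regions lower in brain and 2 higher, with a median of -14.4 points. Within them Grik4 and Grik3, subunits of the high- and low-affinity kainate receptors, had 7 of 9 and 4 of 5 regions lower and none higher. NMDA receptor genes had both directions, with 10 of 19 lower and 7 higher. Grin2a, the subunit that predominates in mature cortex, was lower in all 4 of its regions (median -33.2 points), Grin2d was higher in all 3, and Grin2b, the subunit prominent in early life, was divided, with 5 lower and 2 higher of 8. Metabotropic receptor genes had 6 of 13 higher and 3 lower, with a median of 2.72 points. The GABA-B gene Gabbr2 had 8 of 13 lower and 3 higher (median -16.1). The GABA-A regions, 7 in Gabrb1 and 1 in Gabra6, had 4 of 8 lower and 1 higher. AMPA receptor genes had 1 of 2 lower and 0 higher (median -17.2), and the delta receptor gene Grid1 had 1 of 3 lower and 1 higher (median 3.01). These counts are descriptions, since no test was made between classes and neighbouring regions of a gene are not independent.

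The single regions described next were chosen after their values were seen, as the 5 with the most positive and the 5 with the most negative difference. In the Grm2 region printed above, in the gene for a presynaptic autoreceptor that limits glutamate release, F1 brain libraries had a lowest value of 87.7%, a median of 90.8% and a highest of 93.4% (n = 8). F1 sperm libraries had a lowest value of 0.595%, a median of 2.09% and a highest of 3.93% (n = 6). The groups did not overlap and were 88.7 points apart (SE 0.851, limma adjusted p = 3.29e-33). Each of its 12 cytosines stood between 83.6% and 94.9% in brain and between 0.298% and 6.25% in F1 sperm, and F0 sperm of unexposed WT males was at 1.99% ± 1.18 (n = 10). The Grm2 promoter, by contrast, was low in both tissues, at 1.20% ± 0.617 in brain and 0.708% ± 0.436 in F1 sperm (n = 4).

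In the Grin2b region of exon 14 the brain libraries ran from 89.3% over a median of 94.6% to 96.8% (n = 8). The F1 sperm libraries ran from 1.85% over 3.61% to 9.38% (n = 6), and no library of one tissue reached the other. The difference was 89.7 points (SE 1.23, adjusted p = 1.40e-29), and F0 sperm was at 4.19% ± 2.09 (n = 10). A further Grin2b coding region in exon 4, at chr6:135923158-135923285, was at 71.4% ± 5.52 in brain and 21.2% ± 10.5 in F1 sperm (50.2 points, SE 3.41, adjusted p = 6.51e-13). An intronic Grin2b region at chr6:136127997-136128103 went the other way, with 43.0% ± 7.49 in brain and 95.0% ± 3.87 in F1 sperm (-52.0 points, SE 4.10, adjusted p = 4.64e-11). Grin2b thus held regions that were higher and regions that were lower in brain than in sperm.

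Grin2d, an NMDA subunit of interneurons and subcortical neurons, had brain values from 67.8% over a median of 80.3% to 85.9% in its exon 2 region (n = 8). Its F1 sperm values were 5.95%, 16.9% and, as the median, 8.45% (n = 4), which left a wide gap between tissues (70.2 points, SE 3.11, adjusted p = 1.39e-16). In Grid1, the delta receptor that binds synaptic organisers, a region of coding exon 2 at chr14:34822563-34822675 was at 53.9% ± 2.17 in brain and 4.30% ± 3.13 in F1 sperm (49.6 points, adjusted p = 1.43e-19).

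On the other side of the scale, the printed Gabbr2 intron was at 15.4% at the lowest, 21.3% at the median and 28.4% at the highest in brain (n = 8). The F1 sperm libraries were at 85.0%, 86.0% and 87.9% on the same measures (n = 4), again without overlap (-65.3 points, SE 3.82, adjusted p = 5.43e-14). Its 4 cytosines were not alike in F1 sperm, where they ran from 52.1% to 100%, while F0 sperm held 84.9% to 99.1%. Gabbr2 encodes the subunit that couples the GABA-B receptor to its G protein, and its other intronic regions at chr4:46819629-46819703 (35.3% in brain, 97.7% in F1 sperm) and chr4:46975596-46975676 (42.3% and 98.0%) moved alike. The Grin2a intron at chr16:9886558-9886644 was at 30.5% ± 5.04 in brain and 91.1% ± 8.61 in F1 sperm (-60.6 points, SE 4.30, adjusted p = 8.71e-13). All 5 regions with the highest difference lay in coding exons and all 5 with the lowest in introns. These regions were picked by their values, and several lie in the same gene. The share of coding and intronic regions among the other regions was not counted, so no rule can be read from this.

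Of the 20 promoter windows tested between tissues 5 passed, against 32.6% of all promoters. Grin2c, the NMDA subunit typical of cerebellum, rose from 2.37% ± 1.22 in F1 sperm (n = 6) to 29.6% ± 3.03 in brain (n = 8), a difference of 27.2 points (SE 1.82, adjusted p = 3.60e-13). This rests on the 5 cytosines scoreable in both tissues, and over all 64 cytosines of the window scored in brain Grin2c was at 3.92% ± 0.566. Gria1 was lower in brain by -35.8 points (SE 3.87, adjusted p = 1.60e-08) and Gabra6 by -19.7 points (SE 1.70, adjusted p = 8.31e-11), with no overlap between tissues in either gene. These windows rest on 3 cytosines in Gria1 and 4 in Gabra6. In F0 sperm of unexposed WT males the Gria1 promoter was at only 8.26% ± 6.99 (n = 9). Grin3b (-5.21 points, adjusted p = 0.00034) and Gria2 (2.20 points, adjusted p = 0.00035) passed as well, but with the window narrowed to 500 bp they were at 0.230 points (adjusted p = 0.84) and 0.0039 points (adjusted p = 0.997). The other 15 windows did not pass and their means lay below 6% in both tissues. Among these were Grin1, Grin2b, Grm7 and both GABA-B genes, and Grik5 had the widest spread, 5.52% ± 6.43 in F1 sperm (n = 4) and 1.61% ± 0.704 in brain. Under other settings of the limma fit, Grik3 passed on a logit scale (adjusted p = 0.0380), with both groups alone (0.0194) and at 500 bp (0.0180). Gabra2 passed on a logit scale (0.0458) and with at least 6 libraries (0.0473). In sons of exposed WT sires 7 of 20 passed, against 37.8% of all promoters.

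Of 30 body windows 24 passed, or 80.0%, against 71.2% of all bodies, with 14 higher and 10 lower in brain, where 40.5% and 30.7% of all bodies were. In sons of exposed sires also 24 passed, against 68.5%, with 10 higher and 14 lower, as were 4708 and 4638 of all 13636 bodies. Grin3a, an NMDA subunit that lowers calcium entry, was at 87.4% ± 2.74 in brain and 38.6% ± 3.32 in F1 sperm (48.8 points, SE 2.35, adjusted p = 5.93e-16). This Grin3a difference rests on 10 cytosines. Over the 20 scored in F1 sperm the same body was at 21.9% in sons of unexposed sires, so the level depends on which cytosines were scored. Grin2a was lower in brain (53.7% against 73.9%, adjusted p = 2.54e-12) and so was Grik4 (67.9% against 85.8%, adjusted p = 1.08e-12). For Gabbr2 (-21.1 points) and Gria1 (-16.8 points) the direction depended on which cytosines were scored, since at cytosines with values in at least 6 libraries of each group the differences were 0.135 points (adjusted p = 0.956) and 6.51 points (adjusted p = 0.00107).

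The partners of the receptors, listed with earlier results known, were read in the same way. Transporters and enzymes of glutamate and GABA had 13 of 23 regions past the threshold between tissues (56.5%), with 8 higher and 5 lower in brain. Scaffolds and auxiliary subunits of the receptors had 43 of 80 (53.8%), with 16 higher and 27 lower. Of all regions 56.3% passed, 30.3% higher and 26.0% lower in brain. Within tissues 1 feature of either list passed. It was the body of Slc17a7, the vesicular glutamate transporter of cortical neurons, which was 6.06 points higher (SE 1.33, adjusted p = 0.0103) in unexposed Nrf2-/- than in unexposed WT F0 sperm, a contrast in which 0.521% of all bodies passed.

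Within each tissue, 12 comparisons asked whether CS, recovery, loss of Nrf2 or the sire's exposure and genotype altered the receptor genes. Of 195 receptor regions in F0 sperm, 0 passed an adjusted p of 0.05 by limma for CS in WT, against 0.00159% of all regions, and 14 had an unadjusted p below 0.05, against 3.91%. For recovery 1, 2 and 3 the counts were 0, against 0.0%, 0.00637% and 0.043%, with 9, 12 and 13 unadjusted, against 5.28%, 4.15% and 6.31%. In unexposed Nrf2-/- against unexposed WT sperm 0 passed, against 0.409% (14 unadjusted, against 7.83%). In exposed against unexposed Nrf2-/- sperm 0 passed, against 0.00637% (18 unadjusted, against 5.75%). Exposed Nrf2-/- against unexposed WT sperm gave 1 of 195, or 0.513%, against 0.357% (19 unadjusted, against 7.9%). It is the only within-tissue receptor feature that passed in these 12 comparisons.

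In F1 sperm 0 of 116 receptor regions passed for the sire's exposure, against 0.0% of all regions (12 unadjusted by limma, against 5.38%). In F1 brain 0 of 275 passed for exposure of WT sires, against 0.00124% (11 unadjusted, against 4.16%), and 0 for Nrf2-/- sires, against 0.0124% (18 unadjusted, against 7.77%). Exposed Nrf2-/- against unexposed WT sires gave 0, against 0.0198% (25 unadjusted, against 10.4%), and exposed against unexposed Nrf2-/- sires 0, against 0.00124% (30 unadjusted, against 9.63%). Receptor regions thus reached an unadjusted p below 0.05 in 4.0% to 10.9% of cases over the 12 comparisons and all regions in 3.91% to 10.4%. The ends of these ranges come from different comparisons. The receptor share was furthest above that of all regions for CS in WT (7.18%) and Nrf2-/- F0 sperm (9.23%) and in F1 sperm (10.3%). It was below that share for recovery 1 (4.62%) and unexposed Nrf2-/- F0 sperm (7.18%). In brain it was below for exposed WT (4.0%), unexposed Nrf2-/- (6.55%) and exposed Nrf2-/- against unexposed WT sires (9.09%).

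Of receptor promoters and bodies 0 passed by limma in any of the 12 comparisons. Over all genes promoters passed in 0.0777% and 0.124% for unexposed and exposed Nrf2-/- against unexposed WT F0 sperm, in 0.00972% and 0.0194% for the same contrasts of sires in brain, and in 0.0% for the others. Bodies passed in 0.521% and 0.436% in the same F0 sperm contrasts, in 0.017% for recovery 3, in 0.0103% for exposed against unexposed Nrf2-/- sires in brain, and in 0.0% for the others. Of the 28 receptor promoters in F0 sperm, 4 reached an unadjusted p below 0.05 for CS in WT (14.3%, against 4.26% of all promoters) and 3 for CS in Nrf2-/- males (10.7%, against 4.71%). Recovery 1, 2 and 3 gave 2, 1 and 2 (5.15%, 4.47% and 5.53% of all promoters), and unexposed and exposed Nrf2-/- against unexposed WT sperm 1 and 3 (6.17% and 6.4%). In F1 sperm 1 of 20 promoters did (5.0%, against 5.37%). In brain 0 of 28 did for exposed WT sires (2.87% of all promoters), 6 for unexposed and 6 for exposed Nrf2-/- against unexposed WT sires (21.4% each, against 18.5% and 17.4%), and 2 for exposed against unexposed Nrf2-/- sires (6.03%). Of the 33 receptor bodies in F0 sperm the counts were 1 for CS in WT (4.02% of all bodies), 0, 1 and 2 for the recoveries (4.21%, 3.43% and 6.55%), 3 and 3 for unexposed and exposed Nrf2-/- against unexposed WT (8.87% and 6.98%) and 0 for CS in Nrf2-/- males (6.59%). In F1 sperm 4 of 31 bodies did (12.9%, against 7.36%). In brain 2 of 34 did for exposed WT sires (5.68%), 3 for unexposed Nrf2-/- sires (5.35%), 3 for exposed Nrf2-/- against unexposed WT sires (2140 of all 19469 bodies), and 6 for exposed against unexposed Nrf2-/- sires (17.6%, against 16.7%).

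Tests by limma of whether the effect of CS differed by genotype passed in 0 receptor regions, against 0.0% of all regions, with 16 of 195 in F0 sperm (8.21%, against 4.19% of all regions) and 32 of 275 in brain (11.6%, against 9.42%) at an unadjusted p below 0.05. The same test passed in 0 of 34 receptor bodies in brain, against 0.0103% of all bodies, with 9 unadjusted (26.5%, against 18.0%). It passed in 0 receptor bodies in F0 sperm and 0 promoters in either tissue, against 0.0% of all. Unadjusted counts in F0 sperm were 1 of 33 bodies (3.03%, against 3.35%) and 2 of 28 promoters (7.14%, against 3.79%). In brain 0 of 28 promoters did (0.0%, against 5.83%). Across the 7 F0 groups the mean of a receptor body varied by a median of 1.84 points and at most 4.63 (Gabra2), and across the 4 brain groups by 1.69 and at most 9.48 (Gabrd). Each of these widest windows rests on 4 scored cytosines.

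**Figure D3:**
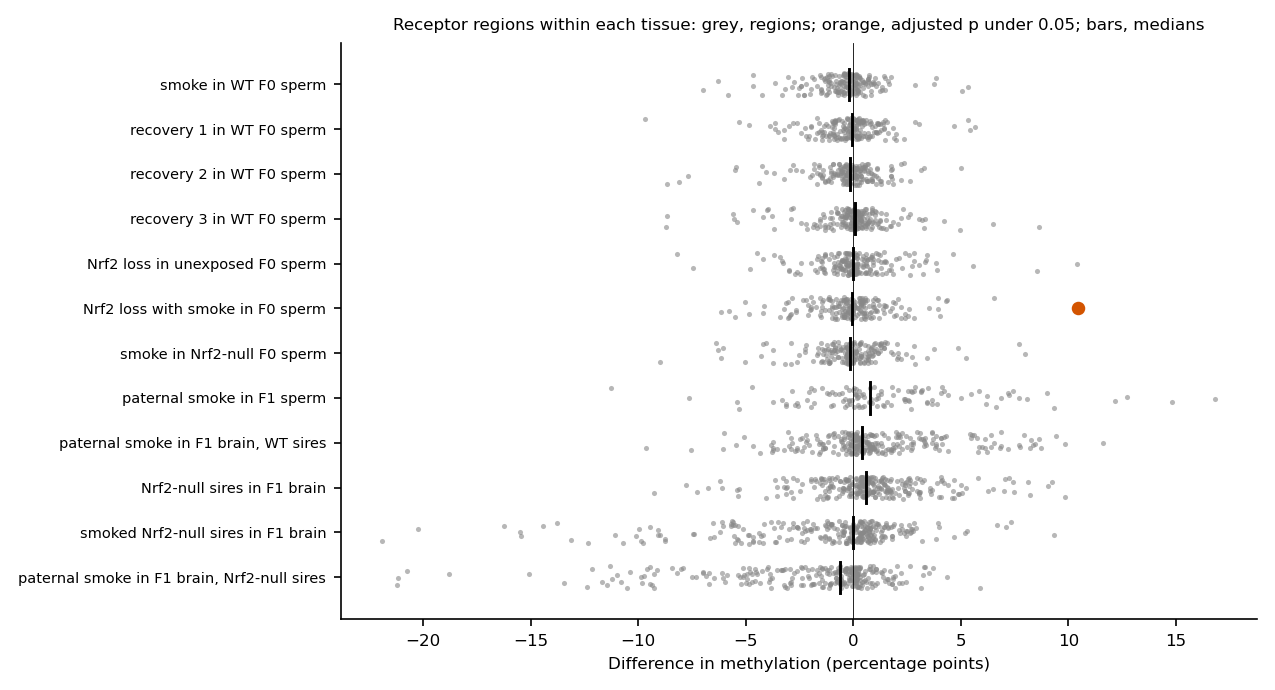
Difference in methylation in percentage points (x axis) of every receptor region in each of the 12 within-tissue comparisons (y axis), with the region that passed the adjusted p marked. The marked Grm4 region lies at 10.4 points for exposed Nrf2-/- against unexposed WT F0 sperm. For exposed against unexposed Nrf2-/- sires in brain the median receptor region lies at -0.621 points, against -0.395 points over all regions of the genome tested.

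The exception was a region of 14 cytosines in coding exon 2 of Grm4, a presynaptic receptor that lowers transmitter release, at chr17:27502680-27502823, 18652 bp past the gene's start and 552 bp from the nearest start of another annotated transcript. Its sequence on the plus strand, with scored CpGs in capitals and the last base of the last CpG included (chr17:27502680-27502824), is shown because it was the one region that passed within a tissue.
Grm4: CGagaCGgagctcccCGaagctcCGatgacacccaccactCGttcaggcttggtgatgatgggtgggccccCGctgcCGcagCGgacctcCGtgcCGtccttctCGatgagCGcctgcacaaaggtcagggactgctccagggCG

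Unexposed WT F0 sperm ran from 16.9% over a median of 23.6% to 30.8% in this region (23.5% ± 4.16, n = 10). Exposed Nrf2-/- F0 sperm ran from 23.2% over 30.8% to 47.0% (33.9% ± 8.23, n = 9). The groups overlapped, and 2 exposed Nrf2-/- libraries at 46.4% and 47.0% lay above the others. The difference was 10.4 points (SE 2.43, limma p = 6.11e-05, adjusted p = 0.0234), and 13 of 14 cytosines were higher, by a median of 10.6 points. It failed at an adjusted p of 0.144 on a logit scale and of 0.244 with both groups fitted alone, and passed in 13 of 19 fits that left out 1 library, with adjusted p from 0.00563 to 0.104. It was lost without unexposed WT library 4 (adjusted p = 0.0519), 6 (0.0644) or 10 (0.0527) and without exposed Nrf2-/- library 5 (0.0541), 7 (0.104) or 9 (0.0902).

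No other comparison within F0 sperm passed at this Grm4 region. Unexposed Nrf2-/- sperm was at 26.2% ± 5.52 (n = 10), 2.74 points above unexposed WT (SE 2.36, adjusted p = 0.851). Exposed WT sperm was at 19.2% ± 3.89 (n = 9), and the recovery groups lay between 18.0% and 21.8%, all below the unexposed WT mean. Exposed against unexposed Nrf2-/- sperm differed by 7.71 points (SE 2.43, adjusted p = 0.613), and the difference in the effect of CS between genotypes was 11.97 points (SE 3.43, unadjusted p = 0.000906, adjusted p = 1.00). In sons of WT sires F1 sperm was at 21.5% and 23.5%, whereas all 4 brain groups lay between 69.8% and 71.4%.

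**Figure D4:**
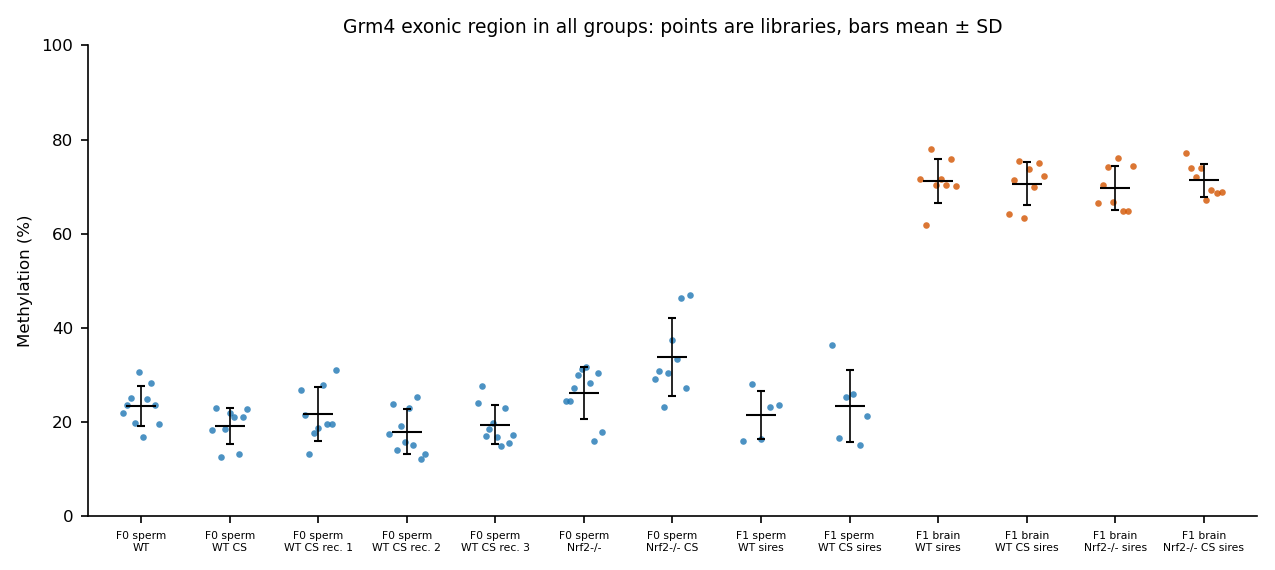
Methylation in percent (y axis) of the Grm4 exon region in single libraries of all 13 groups (x axis), with points for libraries and bars for mean ± SD. Exposed Nrf2-/- F0 sperm reaches 47.0% against a highest value of 30.8% in unexposed WT, and the brain groups lie near 70%.

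For the other comparisons the receptor region with the smallest p was named by rule, and none passed. In F0 sperm CS in WT gave an intron of Gabbr2 at chr4:46844356-46844496 (93.1% against 96.3%, adjusted p = 1.00), and recovery 3 an intron of Grik4 at chr9:42896011-42896126 (82.0% against 90.7%, adjusted p = 0.349). Recovery 1 gave a Grin2b intron (-2.18 points) and recovery 2 coding exon 1 of Grin2d (-1.47 points), 610 bp from the nearest annotated transcript start. Loss of Nrf2 in unexposed males gave Grm8 at chr6:27574620-27574725 (88.5% against 91.5%, adjusted p = 0.176). CS in Nrf2-/- males gave Gabbr2 at chr4:46935442-46935571 (17.3% ± 8.51 against 9.34% ± 4.16, adjusted p = 0.534). In all of these the libraries of both groups overlapped.

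In F1 sperm the smallest p fell in an intron of Grin2b at chr6:136123636-136123735. Sons of exposed sires had a lowest value of 69.7%, a median of 77.5% and a highest of 85.2% (n = 6). Sons of unexposed sires had 61.9%, 65.7% and 68.3% (n = 6), so that the groups did not overlap, and the difference was 12.2 points (SE 2.39, unadjusted p = 0.000345, adjusted p = 0.875). F0 sperm groups all lay between 94.7% and 96.4% here, and brain groups between 68.3% and 69.9%. Its 4 cytosines were unequal, since in sons of unexposed sires they ran from 25.9% to 91.6% in sperm and from 38.6% to 91.2% in brain, against 95.2% to 97.3% in F0 sperm of unexposed WT males. The sons are hybrids with CAST/EiJ and the F0 males are not, and the part of that difference in strain was not tested.

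In F1 brain the smallest p for exposure of WT sires was in Grm2, in a region of 13 cytosines that overlaps the printed one (93.6% ± 2.26 against 90.8% ± 1.70, n = 8 each, adjusted p = 1.00). For Nrf2-/- sires it was in Gria4 at chr9:4502378-4502475 (87.3% ± 3.14, n = 8, against 77.4% ± 7.36, n = 6, adjusted p = 0.618). For exposed Nrf2-/- against unexposed WT sires it was in an intron of Grid1 at chr14:34831811-34831901. Sons of exposed Nrf2-/- sires were at 37.3% at the lowest, 53.2% at the median and 72.8% at the highest (n = 5), and those of unexposed WT sires at 57.5%, 76.8% and 85.2% (n = 8). Groups overlapped, and the difference of -21.9 points (SE 5.37) had an adjusted p of 0.286.

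Exposure of Nrf2-/- sires had its smallest p in an intron of Gabbr2 at chr4:46779434-46779535. Sons of exposed Nrf2-/- sires ran from 24.6% over a median of 46.6% to 60.4% (n = 8), and sons of unexposed Nrf2-/- sires from 46.0% over 64.6% to 80.5% (n = 8). Sons of exposed and unexposed WT sires were at 67.0% ± 11 and 58.8% ± 10.8. The difference of -21.2 points (SE 5.44, adjusted p = 0.262) and that between the effects in both sire genotypes, -29.5 points (SE 7.70, adjusted p = 0.275), did not pass.

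Regions were also counted by size with no test, where at least 1 in 3 of the cytosines moved by more than 5 points and the mean moved by more than 5 points. In F0 sperm 4 of 195 receptor regions met this for CS in WT (2.61% of all regions did), and 5, 8 and 7 for recovery 1, 2 and 3 (3.4%, 2.53% and 4.1%). Unexposed Nrf2-/- sperm gave 6 (5.1%), exposed Nrf2-/- against unexposed WT 7 (4.93%) and exposed against unexposed Nrf2-/- 9 (3.73%). In F1 sperm 20 of 116 met it (17.2%, against 13.1%), of which 16 were higher in sons of exposed sires, as were 86.4% of all regions past this size. In brain 35 of 275 met it for exposure of WT sires (12.7%, against 8.33%), 30 of them higher (82.0% over all regions), and 24 for Nrf2-/- sires (8.73%, against 7.53%).

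The sons of exposed Nrf2-/- sires had 47 of 275 receptor regions past this size against sons of unexposed WT sires (17.1%, against 13.6% of all regions), 41 of them lower, as were 90.8% of all regions past it. Against sons of unexposed Nrf2-/- sires there were 50 (18.2%, against 16.0%), and all 50 were lower, as were 94.1% of all regions past this size. Without the 4 brain libraries whose mean was under 33% the counts were 28 (21 lower; 9.02% of all regions) and 40 (37 lower; 10.8%), and 44 for exposure of WT sires (39 higher; 8893 of all 80920 regions). Of all regions past this size without those libraries, 63.2% and 77.8% were lower in the first 2 contrasts and 88.9% higher in the third. The median receptor region had an SD between libraries of 1.61 to 1.92 points in the F0 sperm groups, 3.89 and 4.17 in F1 sperm and 3.43 to 4.05 in brain. These SDs were 0.979 to 1.06 times those of all regions in F0 sperm, 1.25 and 1.38 times in F1 sperm and 1.09 to 1.37 times in brain.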

How the data were processed

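Percent methylation at each CpG position and library was analysed as deposited. The authors had trimmed and aligned single-end RRBS reads from MspI and TaqαI digests to mm10 with Bismark, per the labels and the methods, and joined the libraries of each group in 1 table. Values are percent with no coverage, so no test on reads was possible, and a percentage from few reads counts like one from many. All value columns were assigned to groups (0 unused), but the headings do not say which replicate a column holds, so library numbers count columns.

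Genes were taken from GENCODE M21 (GRCm38). Cytosines needed values in at least 4 libraries of every group of a tissue. Regions joined cytosines up to 100 bp apart, with at least 3 cytosines and over 50 bp. A feature's value in a library was its mean after adjustment for missing cytosines, so values may fall slightly outside 0 to 100, and needed 50% of its cytosines. Group means were compared on the percent scale with moderated tests (limma 3.58.1, R 4.3.3), with all groups of a tissue in 1 fit (the 4 F1 groups with WT sires for brain against sperm), at least 3 libraries a group and Benjamini-Hochberg adjustment over all features of a kind. The fit was tested on simulated data for F0 sperm regions only, with normally distributed noise around the mean of each region. Fits of F1 sperm, of brain and between tissues were not simulated. Each library came from 1 animal.

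The receptor genes and partner lists were chosen with earlier results of these data known. Text names were fixed as each called receptor feature in a within-tissue comparison, or else its smallest p, the largest promoter and body differences between tissues, and promoters that did not pass. The 5 highest and 5 lowest regions were added later. Alternatives were a logit scale, array weights, both groups alone, at least 6 libraries, joining up to 300 bp, 500 bp promoters, a size of 10 points, and each library left out. Sequences are those of the GRCm38 reference.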

Additional observations from a re-analysis of the deposited data

Results flagged for a closer look

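Libraries that stood apart from the rest of their group were sought in 100 groups of 4 to 10 values. For normally distributed values chance would set apart about 1 in 20, and 11 were found. Several were promoters near 0%, where values are not normally distributed and that rate need not hold. In F1 sperm of sons of unexposed WT sires, library 1 had a Grin2c promoter at 4.74% with the nearest library at 2.50% and a Grm6 promoter at 1.76% with the others at 0. Library 5 of that group had a Gabra2 promoter at 2.36% (nearest 0.595%) and a Gabbr1 promoter at 2.08% (nearest 0.0%). Library 4 had 2.82% (nearest 0.595%) at the Gabra4 promoter and, since both genes share these cytosines, the same 2.82% at the Gabrb1 promoter. Library 3 had the Grin2a intron at 73.8%, with the nearest library at 91.5%.

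In brain of sons of unexposed WT sires, library 8 had a Gria2 promoter at 5.00% (nearest 3.58%) and library 7 the Grin2d exon 2 region at 67.8% (nearest 79.4%). In F0 sperm, library 9 of recovery 1 had the Grin2b intron at 90.5% (nearest 94.3%) and library 3 of recovery 3 the Grik4 intron at 67.4% (nearest 77.8%).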

How the results depend on the processing

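Of 233 counts of receptor features past the threshold under other settings, 221 stayed within 1.5 times the reported count. For exposed Nrf2-/- against unexposed WT F0 sperm, the 1 region became 0 on a logit scale, 0 with both groups alone and 2 with at least 6 libraries. Unexposed Nrf2-/- F0 sperm gave 1 region when joined up to 300 bp (0 reported) and 1 promoter (Gabra2) with array weights and 1 with a 500 bp window (0 reported). Between tissues at least 6 libraries left 25 regions in sons of unexposed and 27 in sons of exposed sires, of 32 tested, and 2 and 1 promoters of 4 tested. The 500 bp window gave 3 and 3 promoters. Fewer features were tested there. The share of all features past the threshold under these settings is not given here, so these counts have no background beside them.

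With 1 library left out, 925 of 936 counts held. Regions for exposed Nrf2-/- against unexposed WT F0 sperm ranged from 0 to 2 and promoters for unexposed Nrf2-/- F0 sperm from 0 to 1. Bodies for the difference of exposure effects by sire genotype in brain ranged from 0 to 2, where Gabbr2 and Grik4 passed without library 8 of sons of exposed WT sires. Without the 4 low brain libraries, chosen after their means were seen, no count of passing features moved by over 1.5 times, while the size count for exposed Nrf2-/- against unexposed WT sires was 28.

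Counts by size moved with their definition. At more than 10 points they were 0 of 195 for CS in WT, each of the 3 recoveries, unexposed Nrf2-/- and CS in Nrf2-/- F0 sperm (0.283% to 1.14% of all regions), and 1 for exposed Nrf2-/- against unexposed WT (1.1%). They were 6 of 116 in F1 sperm (2.27%) and, of 275 in brain, 1, 0, 14 and 17 for exposed WT, unexposed Nrf2-/-, exposed Nrf2-/- against unexposed WT, and exposed against unexposed Nrf2-/- sires (1.35%, 0.87%, 3.6% and 5.25%). Joined up to 300 bp, of 275 regions CS in WT gave 10 (4.89% of all), recovery 1 gave 8 (5.52%), recovery 3 gave 18 (6.96%), unexposed Nrf2-/- 17 (8.28%), exposed Nrf2-/- against unexposed WT 12 (7.05%) and CS in Nrf2-/- 15 (6.6%). F1 sperm gave 39 of 155 (19.7%), and brain 55 of 360 for exposed WT (10.1%) and 42 for unexposed Nrf2-/- sires (9.47%). With at least 6 libraries recoveries 1, 2 and 3 gave 3, 4 and 4 of 167 (2.44%, 1.78% and 3.01%) and F1 sperm 10 of 33, a larger share than the reported one (30.3%, against 18.1% of all). Brain gave 22, 15 and 28 of 237 for exposed WT, unexposed Nrf2-/- and exposed Nrf2-/- against unexposed WT sires (6.4%, 6.0% and 11.2%).

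Of 210 values of single named features under other settings, 199 held and 3 changed sign between tissues, namely the Grin3b promoter at 500 bp (0.230 points) and the bodies of Gabbr2 (0.135 points) and Gria1 (6.51 points) with at least 6 libraries, where other cytosines were scored. The causes of the other changes were not tested. No paired analysis was possible because the columns carry no replicate number. Unknown depth, the tie of genotype and tissue to the facility and serial numbers, and 1 library with conflicting labels limit all comparisons, and promoters of Grin2d, Grm3, Grm5, Gabrb2, Gabrd and Grik1 were not analysed here.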
